A study of Mus musculus with 6 samples.

Results

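The genes described here are 10 antioxidant enzymes of mouse liver, Nqo1, Gclc, Gclm, Txnrd1, Srxn1, Hmox1, Cat, Sod1, Sod2 and Gpx1. They were chosen by name, as targets of the transcription factor NRF2 or as enzymes that remove superoxide and peroxide, and all 10 had a value among the 12705 genes tested. Each array probe set that the platform annotation gives to exactly 1 of these genes was read, 25 of the 45101 probe sets in all, and the probe set with the highest mean over 6 arrays stood for its gene. Expression was measured in livers of 3 Retnla transgenic (Tg) mice, Tg 5, Tg 6 and Tg 7, and of 3 non-transgenic (non-Tg) mice, non-Tg 1, non-Tg 2 and non-Tg 3. All were males on a C57BL6/J strain background, aged 3 months, and had eaten a high-fat diet with 21% fat and 0.15% cholesterol for 4 weeks from 8 weeks of age. Each liver gave 1 array, so the mouse is the replicate. The promoter that drives the transgene and the number of transgenic lines stay unnamed here, since the sources used give neither, and a difference of the line other than Retnla cannot be told apart from the transgene.

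NRF2, encoded by Nfe2l2, is a transcription factor held at low level by KEAP1, which marks it for breakdown. When electrophiles or oxidants modify KEAP1, NRF2 builds up, pairs with a small MAF protein and binds antioxidant response elements in its target genes, while BACH1 competes for the same elements, best known at Hmox1. Its targets make glutathione, keep thioredoxin and peroxiredoxins reduced, and detoxify quinones and heme. Cat, Sod1, Sod2 and Gpx1 are abundant liver enzymes that remove superoxide and hydrogen peroxide and are set by several pathways besides NRF2.

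Promoter sequences show where these genes carry the letters of such an element close to their start. RefSeq windows of build GRCm38.p6, from 250 bases before to 50 bases after an annotated start, were found for 8 of the 10 genes, all but Gclc and Hmox1, with 3 starts for Txnrd1 and 10 windows in all. The core letters TGACNNNGC were searched on both strands and occurred in 4 of these 10 windows, those of Gclm, Txnrd1, Srxn1 and Sod1, and in 12.4% of all 32851 windows. A form of the same length with more fixed letters, TGANTCAGC, matches the core too where its N is C. It occurred in 1 of the 10, that of Srxn1, where the N is G, and in 1.19% of all windows. A match is a description of letters and not a binding site. The Srxn1 window is shown whole because it held both forms and because a Srxn1 probe set gave the largest difference without overlap between groups among the member probe sets described below. In all 4 sequences the strand is the gene's own, read 5′ to 3′, and capitals mark the matches. The first match in Srxn1 begins 45 bases before the start and the second at base 29 after it, on the opposite strand. The Gclm, Txnrd1 and Sod1 matches are shown with their flanks, begin 134, 92 and 56 bases before the start, and all read on the opposite strand.
Srxn1, chr2:152105274-152105573: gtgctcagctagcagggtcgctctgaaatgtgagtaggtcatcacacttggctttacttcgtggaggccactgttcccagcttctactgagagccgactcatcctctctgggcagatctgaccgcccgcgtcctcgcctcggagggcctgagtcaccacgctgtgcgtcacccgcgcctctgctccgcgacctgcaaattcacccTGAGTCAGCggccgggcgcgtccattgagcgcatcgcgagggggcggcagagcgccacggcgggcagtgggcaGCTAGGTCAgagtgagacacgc
Gclm, chr3:122245407-122245447: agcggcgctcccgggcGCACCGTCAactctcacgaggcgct
Txnrd1, chr10:82859098-82859138: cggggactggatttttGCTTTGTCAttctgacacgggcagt
Sod1, chr16:90220690-90220730: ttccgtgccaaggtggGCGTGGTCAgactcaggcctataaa

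The arrays and labels were checked first. Retnla had a log2 signal of 16.04, 15.91 and 16.04 in Tg 5, Tg 6 and Tg 7, against 6.03, 7.41 and 6.48 in non-Tg 1, non-Tg 2 and non-Tg 3, so all 3 Tg livers were far above all 3 non-Tg livers. The arrays fell into 2 sets by bioC, a bacterial control transcript added before hybridization: Tg 5, Tg 6 and non-Tg 1 were low in it, and Tg 7, non-Tg 2 and non-Tg 3 were high. What separated the sets is not in the labels, so the difference of each member within each set is given beside its value. Of 10 hepatocyte markers 8 had a value, and their summed linear signal was 507572 to 530877 over the Tg mice and 481785 to 536797 over the non-Tg mice, so both groups carried the markers of the labelled tissue. In whole tissue, fewer cells of a type and less RNA per cell cannot be told apart.

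None of the 10 genes passed the test between Tg and non-Tg livers. The test was limma with an intensity trend over all 12705 genes, with a threshold of 0.05 on p-values adjusted by Benjamini and Hochberg, and 0.0157% of all genes passed it. The adjusted p of the 10 ran from 0.820 to 0.974. At an unadjusted limma p under 0.05 the count was 0 of 10, beside 6.05% of all genes. In Tg livers 3 members stood higher and 7 lower, with a median log2 difference of -0.07, beside 6613 higher, 6092 lower and a median of 0.01 over all genes tested. With arrays centred on their medians 1 stood higher and 9 lower, and the median over all genes moved to -0.06. The groups did not overlap for 2 of the 10, Cat and Gpx1, both lower in Tg livers, beside 11.7% of all genes in either direction and 5.64% in the lower one. Another 6.04% of all genes, and 0 of the 10, were higher in Tg livers without overlap. The 95% confidence intervals bound what these 6 arrays allow for the probe set that stood for each gene. For every member but Hmox1 this interval of the Tg to non-Tg ratio lay between 0.633 and 1.41. For Hmox1 it ran from 0.732 to 2.09. Some other probe sets of these genes reached further, with log2 intervals such as 0.10 to 1.22 (Srxn1) and -1.07 to 0.20 (Sod1). A p that misses the threshold does not show that a gene was unchanged.

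**Figure D1:**
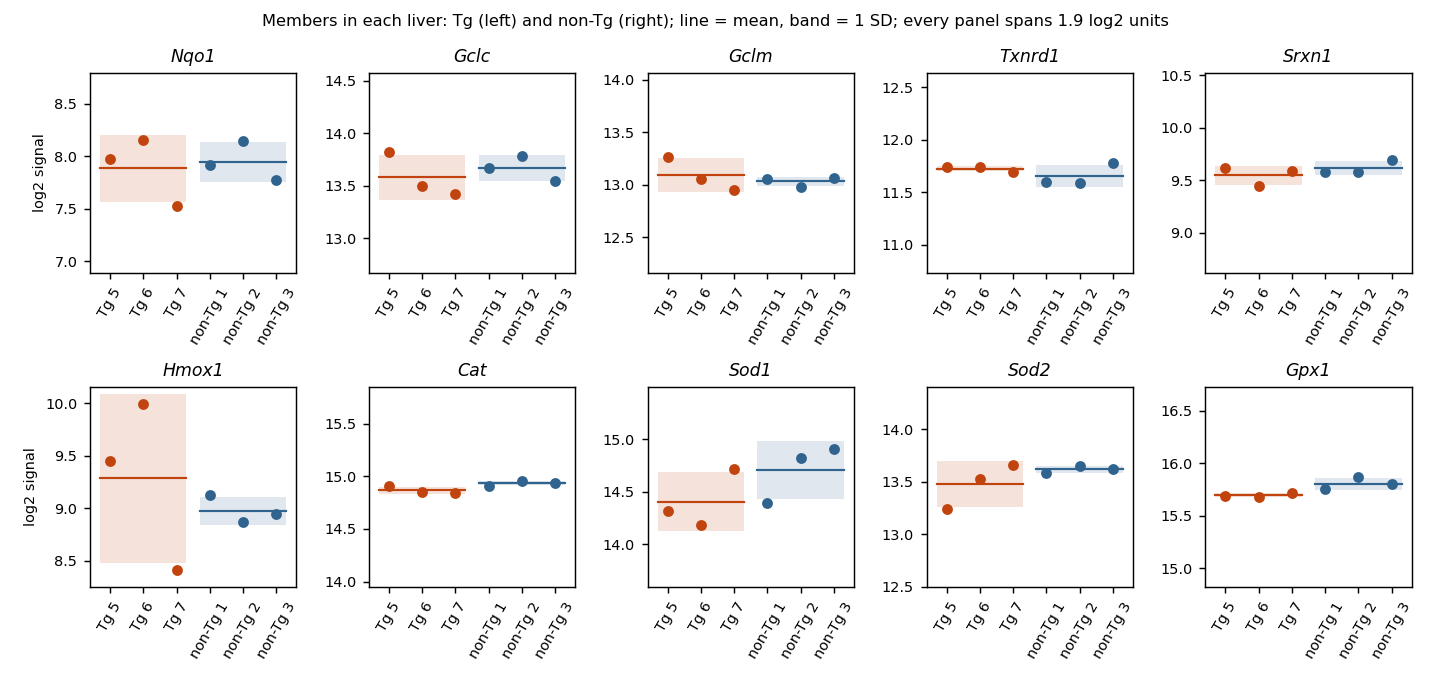
Log2 signal of the 10 genes in each liver, Tg on the left and non-Tg on the right of every panel, with the group mean as a line and 1 SD as a band. Panels have the same height in log2 units, so that the wide spread of Hmox1 among Tg livers, from 8.41 to 9.997, stands against the narrow ranges of Cat and Gpx1.

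Both subunits of the enzyme that starts glutathione synthesis had overlapping values in Tg and non-Tg livers. Gclc encodes the catalytic subunit of glutamate-cysteine ligase, the rate-limiting enzyme of glutathione synthesis. Its log2 signal was 13.82, 13.50 and 13.42 in Tg 5, Tg 6 and Tg 7, against 13.67, 13.79 and 13.55 in non-Tg 1, non-Tg 2 and non-Tg 3. The highest and the lowest value both came from Tg livers, and the groups overlapped. The difference was -0.09 ± 0.12 (SE; 95% confidence interval -0.35 to 0.18; limma adjusted p = 0.901), and -0.01 and -0.25 within the low and high bioC sets. It was -0.21 without Tg 5 and -0.01 without Tg 7. A second Gclc probe set differed by -0.22 ± 0.12 (SE), also with overlap. Gclm encodes the modifier subunit, which raises the affinity of the ligase for glutamate. Its log2 signal was 13.27, 13.05 and 12.96 in Tg 5, Tg 6 and Tg 7, against 13.05, 12.98 and 13.06 in non-Tg 1, non-Tg 2 and non-Tg 3. Tg 5 was highest, as for Gclc, and Tg 7 lowest, with the non-Tg livers between them. The Gclm difference was 0.06 ± 0.10 (SE; 95% confidence interval -0.17 to 0.29; limma adjusted p = 0.920), and 0.11 and -0.07 within the low and high bioC sets. Its second probe set gave -0.04. Without Tg 5 the Gclm difference was -0.03, and with arrays centred on their medians it was -0.01, so its direction depends on the processing and on 1 liver.

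For the peroxiredoxin and thioredoxin repair enzymes the size of the difference, and whether the groups overlapped, varied between probe sets, and none passed. Srxn1 encodes sulfiredoxin, which restores peroxiredoxins whose active cysteine was overoxidized. The Srxn1 probe set with the highest mean, here called Srxn1 a, had a log2 signal of 9.61, 9.44 and 9.58 in Tg 5, Tg 6 and Tg 7, against 9.58, 9.58 and 9.69 in non-Tg 1, non-Tg 2 and non-Tg 3. Its groups overlapped, and the difference was -0.07 ± 0.14 (SE; 95% confidence interval -0.39 to 0.25; limma adjusted p = 0.938), and -0.05 and -0.05 within the low and high bioC sets. Probe set Srxn1 b, the next in brightness, had a log2 signal of 9.64, 9.38 and 9.12 in Tg 5, Tg 6 and Tg 7, against 8.83, 8.997 and 9.08 in non-Tg 1, non-Tg 2 and non-Tg 3. All 3 Tg livers lay above all 3 non-Tg livers, with a log2 difference of 0.41 ± 0.18 (SE; 95% confidence interval 0.01 to 0.81; limma adjusted p = 0.886). Probe set Srxn1 c had 8.22, 8.20 and 7.94 in Tg 5, Tg 6 and Tg 7, against 7.55, 7.27 and 7.56 in non-Tg 1, non-Tg 2 and non-Tg 3. Here too every Tg liver was above every non-Tg liver, and the difference was 0.66 ± 0.26 (SE; 95% confidence interval 0.10 to 1.22; limma adjusted p = 0.886), or 1.58-fold. These 2 probe sets had unadjusted limma p of 0.0442 and 0.0250, beside 5.54% of all probe sets under 0.05. Neither passed after adjustment, beside 0.00444% of all probe sets that did. Both carry the same gene symbol and were read in the same 6 RNA samples, so they are not independent. For each, the exact 2-sided permutation p over the mice was 0.1, the smallest that 3 mice against 3 allow. Groups without overlap always give this value, so it adds nothing to the lack of overlap. The dimmest, Srxn1 d, had 7.99, 3.79 and 4.22 in Tg 5, Tg 6 and Tg 7, against 5.00, 7.05 and 5.86 in non-Tg 1, non-Tg 2 and non-Tg 3. It lay next to the filter, its values overlapped, and Tg 5 was far above the other Tg livers.

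Txnrd1 encodes the cytosolic thioredoxin reductase, a selenoprotein that uses NADPH to reduce thioredoxin. Its brightest probe set, Txnrd1 a, had a log2 signal of 11.74, 11.74 and 11.70 in Tg 5, Tg 6 and Tg 7, against 11.60, 11.59 and 11.78 in non-Tg 1, non-Tg 2 and non-Tg 3. The 3 Tg values fell inside the non-Tg range, and the difference was 0.07 ± 0.10 (SE; 95% confidence interval -0.16 to 0.31; limma adjusted p = 0.909). Within the low and high bioC sets it was 0.14 and 0.01. It turned to -0.00315 with arrays centred on their medians. Probe set Txnrd1 b had 9.20, 8.93 and 8.68 in Tg 5, Tg 6 and Tg 7, against 8.65, 8.55 and 8.56 in non-Tg 1, non-Tg 2 and non-Tg 3. No Tg value overlapped a non-Tg value, although Tg 7 lay next to non-Tg 1, and the difference was 0.34 ± 0.19 (SE; 95% confidence interval -0.08 to 0.77; limma adjusted p = 0.887). Probe set Txnrd1 c had 7.73, 7.44 and 7.84 in Tg 5, Tg 6 and Tg 7, against 7.18, 7.36 and 7.08 in non-Tg 1, non-Tg 2 and non-Tg 3. All Tg values were again above all non-Tg values, with Tg 7 highest, and the difference was 0.47 ± 0.30 (SE; 95% confidence interval -0.18 to 1.12; limma adjusted p = 0.895). Within the low and the high bioC sets Txnrd1 b differed by 0.41 and 0.12, and Txnrd1 c by 0.40 and 0.63. Srxn1 b differed by 0.68 and 0.08 there and Srxn1 c by 0.66 and 0.52. Because the groups of these 4 probe sets do not overlap, a higher Tg value within both sets was fixed beforehand. None of these passed under any of the 15 alternatives tried for them. The names of Srxn1 a and Txnrd1 c end in _s_at and _x_at, which mark probe sets that may be shared between transcripts. The transcripts that each probe set reads were not analysed here.

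**Figure D2:**
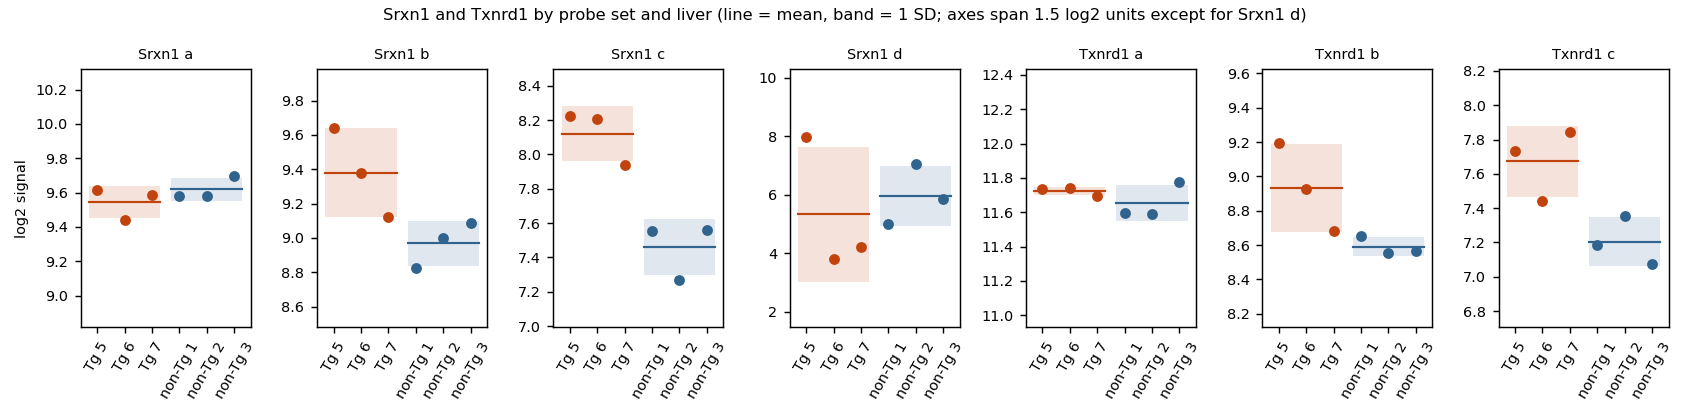
Log2 signal of every Srxn1 and Txnrd1 probe set in each liver, with means as lines and 1 SD as bands. Letters order the probe sets of a gene by mean signal. For Srxn1 b and c and Txnrd1 b and c the 3 Tg livers lie above the 3 non-Tg livers, while for Srxn1 a and d and Txnrd1 a the groups overlap.

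Over the 24 member probe sets above the filter, a mean log2 signal of 5.63, the groups did not overlap for 6, with 4 higher in Tg livers, all of Srxn1 and Txnrd1, and 2 lower, 1 each of Cat and Gpx1. Among all 27022 probe sets above the filter 11.2% did not overlap, 5.83% higher and 5.33% lower. Probe sets of 1 gene were read in the same 6 RNA samples and are not replicates. Differences spread across the 4 kept Srxn1 probe sets by 1.30 log2 units, which put Srxn1 at percentile 91 among 621 genes with 4 kept probe sets, where the median spread was 0.52. The lowest of the 4 was the dim Srxn1 d. The 3 Txnrd1 probe sets spread by 0.40, close to the median of 0.43 among 1488 genes with 3. Averaging the kept probe sets of a gene gave 0.09 for Srxn1 and 0.29 for Txnrd1.

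**Figure D3:**
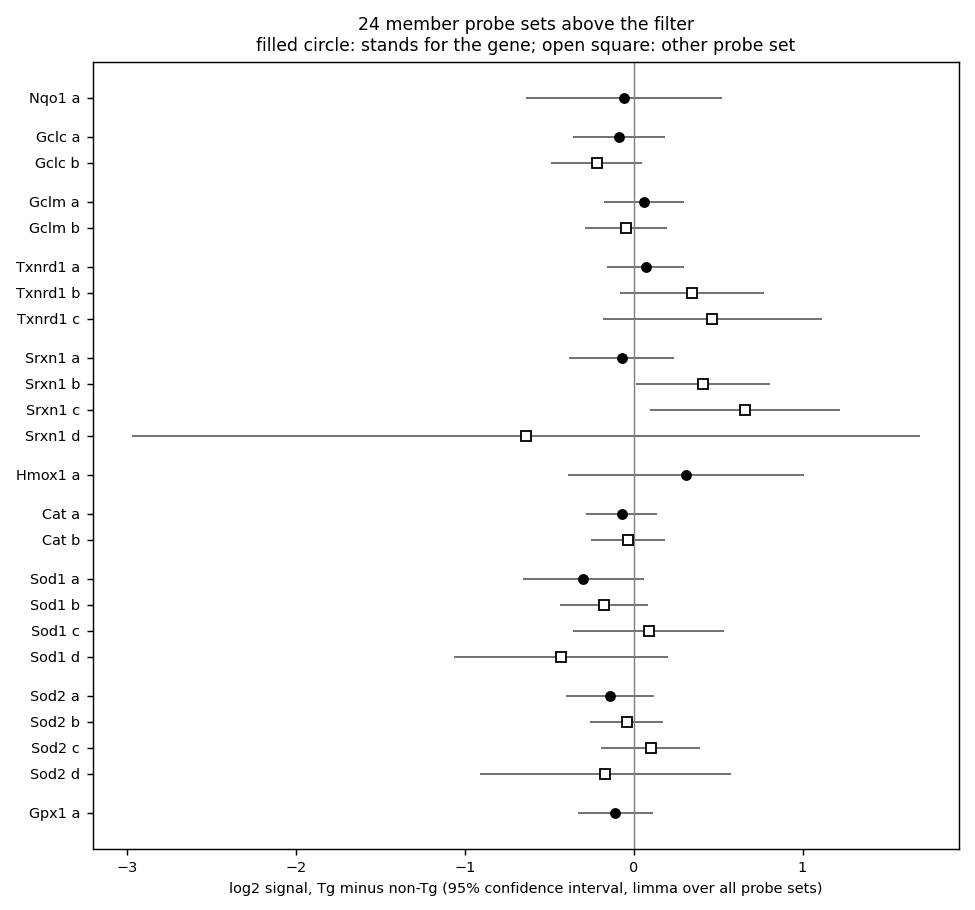
Log2 difference, Tg minus non-Tg, of the 24 member probe sets above the filter, with 95% confidence intervals from limma over all probe sets. Letters order the probe sets of a gene by mean signal. Filled circles mark the probe set that stands for its gene and open squares the others. The intervals of 2 Srxn1 probe sets, at 0.41 and 0.66, lie above 0 before adjustment, and all other intervals hold 0.

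Nqo1 and Hmox1 are widely used readouts of NRF2 activity. Nqo1 encodes the quinone reductase NQO1, which turns quinones into hydroquinones with NADPH or NADH. Its log2 signal was 7.98, 8.15 and 7.53 in Tg 5, Tg 6 and Tg 7, against 7.91, 8.15 and 7.77 in non-Tg 1, non-Tg 2 and non-Tg 3. The groups overlapped, and Tg 7 was lowest. The difference was -0.06 ± 0.25 (SE; 95% confidence interval -0.61 to 0.50; limma adjusted p = 0.974), and 0.15 and -0.43 within the low and high bioC sets. Without Tg 7 it was 0.12 and without non-Tg 2 it was 0.04, so its direction rests on those livers.

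Hmox1 encodes heme oxygenase 1, which opens heme to biliverdin, iron and carbon monoxide and is made by macrophages that take up red cells as well as by stressed hepatocytes. Its log2 signal was 9.45, 9.997 and 8.41 in Tg 5, Tg 6 and Tg 7, against 9.12, 8.87 and 8.94 in non-Tg 1, non-Tg 2 and non-Tg 3. Tg livers held both the 2 highest values and the lowest one, while the non-Tg livers lay close together. This gave an average of 9.29 ± 0.81 over the Tg mice and of 8.98 ± 0.13 over the non-Tg mice (SD, n = 3 in each group), and the difference was 0.31 ± 0.34 (SE; 95% confidence interval -0.45 to 1.07; limma adjusted p = 0.875). The within-group SD of Hmox1 was at percentile 82.9 among all genes tested, the highest of the 10 members. Within the low bioC set, Tg 5 and Tg 6 against non-Tg 1, Hmox1 differed by 0.60, within the high set, Tg 7 against non-Tg 2 and non-Tg 3, by -0.49, and by 0.05 ± 0.27 (SE) when the fit held the sets as a block. Without Tg 7 the difference was 0.75, and without Tg 6 it was -0.05.

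Markers of Kupffer cells, the macrophages of the liver, had the same highest, second and lowest liver as Hmox1. Of 14 such markers 13 had a value, and 12 stood higher in Tg livers, with a median difference of 0.28, and for all 13 the groups overlapped. Their summed linear signal was 35940, 66346 and 24583 in Tg 5, Tg 6 and Tg 7, against 33403, 31382 and 34514 in non-Tg 1, non-Tg 2 and non-Tg 3. Tg 6, Tg 5 and Tg 7 thus had the highest, the second and the lowest sum, as they had of Hmox1 signal. The non-Tg livers between them were in a different order. Within the low and high bioC sets the median of these markers differed by 0.53 and -0.49, and by 0.05 in a fit that held the sets as a block. Of 12 neutrophil markers 6 had a value. Their sum was 849, 877 and 335 in Tg 5, Tg 6 and Tg 7, and 433 to 722 over the non-Tg mice. The sum of 10 endothelial markers was 13951, 14377 and 12815 in Tg 5, Tg 6 and Tg 7. Over the non-Tg mice it was 13594 to 13814. Both lists thus also had Tg 6 highest, Tg 5 second and Tg 7 lowest. Markers of hepatocytes, red cells, stellate cells, bile ducts and T and NK cells did not have this order. Of 14 red cell markers 6 had a value, 5 of them higher in Tg livers, and the sum did not overlap, at 6471 to 8103 over the Tg mice and 4872 to 5440 over the non-Tg mice. The part of these cells in the Hmox1 values was not tested.

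**Figure D4:**
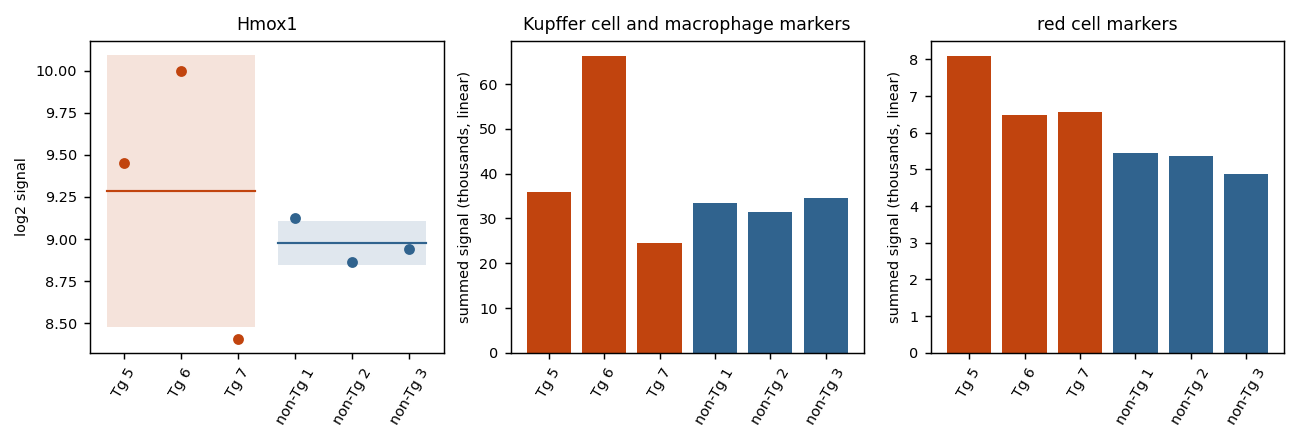
Hmox1 log2 signal per liver on the left, with means as lines and 1 SD as bands, and the summed linear signal of macrophage and of red cell markers as bars from 0. Tg 6 is highest and Tg 7 lowest both for Hmox1 and for the macrophage markers, while the red cell sum is above that of every non-Tg liver in all 3 Tg livers.

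The superoxide dismutases turn superoxide into hydrogen peroxide, SOD1 with copper and zinc in the cytosol and SOD2 with manganese in mitochondria. Sod1 had a log2 signal of 14.31, 14.19 and 14.72 in Tg 5, Tg 6 and Tg 7, against 14.39, 14.82 and 14.90 in non-Tg 1, non-Tg 2 and non-Tg 3. The difference, -0.30 ± 0.16 (SE; 95% confidence interval -0.66 to 0.06; limma adjusted p = 0.820), was the largest on the lower side among the 10 genes, with groups that overlapped. The 3 livers low in bioC were also the 3 lowest in Sod1. Sod1 was 0.52 higher in the high bioC set than in the low one, and within the low and high sets the Tg to non-Tg difference was -0.14 and -0.14. In each set every Tg value was below every non-Tg value. With 2 livers against 1 in each set this order carries little weight, and its share over all genes was not computed. With the sets as a block the Sod1 difference was -0.14 ± 0.07 (SE; limma adjusted p = 0.853). The next Sod1 probe set gave -0.18 ± 0.12 (SE), dimmer ones gave 0.09 and -0.43, and 1 more, at 0.67, lay below the filter and was left out of the gene fit. Sod2 had 13.24, 13.53 and 13.66 in Tg 5, Tg 6 and Tg 7, against 13.58, 13.65 and 13.62 in non-Tg 1, non-Tg 2 and non-Tg 3. Tg 5 was lowest and Tg 7 highest, so the groups overlapped. The Sod2 difference was -0.14 ± 0.11 (SE; 95% confidence interval -0.39 to 0.11; limma adjusted p = 0.846), and -0.20 and 0.03 within the low and high bioC sets. Without Tg 5 it was -0.02. Other Sod2 probe sets gave -0.04, 0.10 and -0.17.

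Catalase and glutathione peroxidase 1 remove hydrogen peroxide, catalase mainly in peroxisomes and GPX1, a selenoprotein, with glutathione in cytosol and mitochondria. Gpx1 had a log2 signal of 15.69, 15.68 and 15.72 in Tg 5, Tg 6 and Tg 7, against 15.75, 15.86 and 15.80 in non-Tg 1, non-Tg 2 and non-Tg 3. All 3 Tg livers lay below all 3 non-Tg livers, and the groups were 0.03 apart at their closest. The difference was -0.11 ± 0.07 (SE; 95% confidence interval -0.26 to 0.04; limma adjusted p = 0.824), a ratio of 0.927, and -0.06 and -0.12 within the low and high bioC sets. Gpx1 has 1 probe set. Cat had 14.91, 14.85 and 14.84 in Tg 5, Tg 6 and Tg 7, against 14.91, 14.96 and 14.94 in non-Tg 1, non-Tg 2 and non-Tg 3. Its groups did not overlap either, but only by 0.00309 log2 units between Tg 5 and non-Tg 1. The Cat difference was -0.07 ± 0.07 (SE; 95% confidence interval -0.23 to 0.09; limma adjusted p = 0.870), a ratio of 0.952, and -0.03 and -0.11 within the low and high bioC sets. Its second probe set gave -0.03 ± 0.10 (SE), with groups that overlapped. For both genes the exact 2-sided permutation p was 0.1, the smallest this design can give and the value that groups without overlap always give. The probe sets of Cat and Gpx1 lay at percentiles 99.6 and 99.9 of mean signal among all probe sets, and their within-group SD at percentiles 0.3 and 0.7 among all genes, so these were among the brightest and least variable signals on the arrays. How far so bright a signal still follows the amount of RNA was not tested.

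The controllers of the pathway did not pass either. Nfe2l2, the gene of NRF2, had a log2 signal of 11.27, 11.28 and 11.28 in Tg 5, Tg 6 and Tg 7, against 11.50, 11.58 and 11.40 in non-Tg 1, non-Tg 2 and non-Tg 3. All 3 Tg values lay below all 3 non-Tg values, with a difference of -0.21 ± 0.11 (SE; 95% confidence interval -0.45 to 0.02; limma adjusted p = 0.814), and -0.22 and -0.21 within the low and high bioC sets. A dimmer Nfe2l2 probe set gave -0.63 ± 0.39 (SE), with overlap. Keap1 had an average of 10.40 ± 0.23 over the Tg mice and of 10.39 ± 0.13 over the non-Tg mice (SD, n = 3 in each group), with a difference of 0.00 ± 0.15 (SE), while its second probe set gave 0.48 ± 0.24 (SE). Bach1, the repressor of Hmox1, was lower in Tg livers without overlap on its brighter probe set, at -0.35 ± 0.14 (SE; limma adjusted p = 0.807), and stood at 0.24 on the other. In all, 12 genes that control NRF2 had a value, 4 higher and 8 lower in Tg livers, with a median of -0.05, and 0 passed. NRF2 is regulated mainly through the stability of its protein, which arrays do not measure.

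Further NRF2 targets, among them glutathione transferases, aldo-keto reductases and export pumps, gave 21 measured genes, 9 higher and 12 lower, with a median of -0.04, and 0 passed. At an unadjusted limma p under 0.05, 3 of the 21 were lower and 1 was higher, beside 6.05% of all genes in either direction. Differences in this list ran from -1.04 to 1.61. The groups did not overlap for 2 of the 21, both higher in Tg livers, beside 11.7% of all genes in either direction and 6.04% in the higher one. The first was Gstm3, a glutathione transferase of the mu class whose relatives are near-identical. It had an average of 12.59 ± 0.63 over the Tg mice and of 10.98 ± 0.49 over the non-Tg mice (SD, n = 3 in each group). The difference was 1.61 ± 0.31 (SE; limma adjusted p = 0.378), with 2.31 and 0.72 within the low and high bioC sets. A dimmer Gstm3 probe set gave 1.36 ± 0.24 (SE), also without overlap. The other gene was Akr1b8, an aldo-keto reductase, at 0.30 ± 0.21 (SE). Genes that make, use or recycle glutathione counted 18, 10 higher and 8 lower, with a median of 0.02. Gpx3, the secreted glutathione peroxidase, was higher without overlap at 0.53 ± 0.24 (SE). Its log2 signal was 8.60, 9.38 and 8.60 in Tg 5, Tg 6 and Tg 7, against 8.32, 8.33 and 8.32 in non-Tg 1, non-Tg 2 and non-Tg 3. Tg 6 stood apart, and without it the difference was 0.27. Mgst3, a microsomal glutathione transferase, was lower without overlap at -0.55 ± 0.17 (SE), and neither of these 2 genes passed. Thioredoxins, peroxiredoxins and related genes counted 17, 7 higher and 10 lower, with a median of -0.02 and 0 passing. There Prdx3, the mitochondrial peroxiredoxin, was lower without overlap, at -0.08.

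Partners of the dismutases had small differences. Ccs, the chaperone that loads copper into SOD1, had 12.87, 12.87 and 12.89 in Tg 5, Tg 6 and Tg 7, against 13.01, 13.01 and 13.003 in non-Tg 1, non-Tg 2 and non-Tg 3. Every Tg value was below every non-Tg value, with a difference of -0.13 ± 0.08 (SE; limma adjusted p = 0.826). Park7, a protein that protects cells from oxidants, was also lower without overlap, at -0.11. Its second probe set gave -0.08 ± 0.12 (SE), with overlap. Ccs and Park7 stood among 7 genes with a median of -0.04, 0 of which passed. They were the 2 of the 7 without overlap, beside 11.7% of all genes in either direction and 5.64% in the lower one. NADPH drives glutathione and thioredoxin reduction, and 1 of 13 genes that supply it passed. This was Nnt, the mitochondrial transhydrogenase, at 13.01, 12.71 and 12.70 in Tg 5, Tg 6 and Tg 7, against 11.30, 11.37 and 11.44 in non-Tg 1, non-Tg 2 and non-Tg 3, a difference of 1.43 ± 0.12 (SE; limma adjusted p = 0.00197, and 0.239 without the intensity trend). C57BL6/J mice are known to carry a deletion within Nnt, and a difference in strain background between the groups cannot be told apart from the transgene. With Nnt included, 5 of the 13 stood higher and 8 lower, with a median of -0.05. Aldh1l1, which makes NADPH from formyl-tetrahydrofolate, was higher without overlap at 0.25 ± 0.08 (SE; limma adjusted p = 0.779) and at 1.13 ± 0.27 (SE) on a second probe set.

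Heme breakdown beyond Hmox1 gave 6 measured genes with a median of 0.03 and differences from -0.18 to 0.07, none without overlap. Peroxisome genes, which share their organelle with catalase, counted 21, 11 higher and 10 lower, with a median of 0.00, and Hao1, a peroxisomal oxidase that makes hydrogen peroxide, was lower without overlap at -0.17 ± 0.09 (SE). Sources of superoxide and peroxide counted 13, with a median of 0.14. Maoa, a mitochondrial monoamine oxidase that makes hydrogen peroxide, was lower without overlap there, with an average of 8.41 ± 0.13 over the Tg mice and of 9.10 ± 0.15 over the non-Tg mice (SD, n = 3 in each group) and a difference of -0.69 ± 0.18 (SE; limma adjusted p = 0.735). In the lists for heme breakdown, peroxisomes and peroxide sources 0 genes passed.

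**Figure D5:**
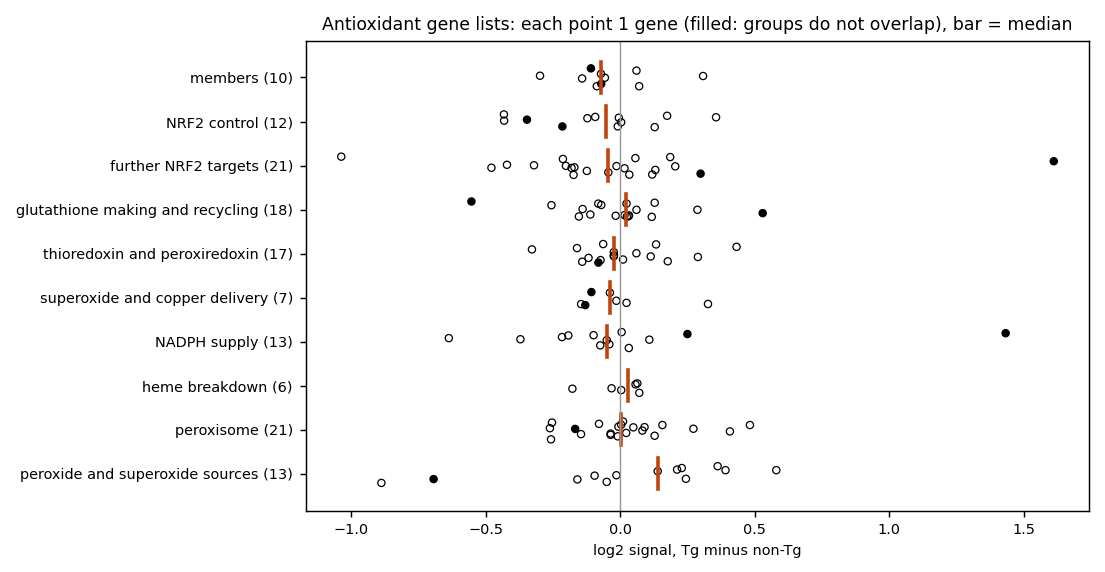
Log2 difference, Tg minus non-Tg, of each measured gene in the 10 antioxidant lists, with the number of genes in brackets, the list median as a bar and filled points for genes whose groups did not overlap. Medians lie between -0.07 and 0.14, and Nnt, at 1.43, is the point that passed the limma test.

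Among the members themselves, no liver stood out in 1 direction throughout. The lowest value belonged to a Tg liver for 9 of the 10 genes, to Tg 7 for 5 of them, and the highest to a non-Tg liver for 5. The matching shares over all genes were not computed, so these counts only describe the 10 members. The within-group SD of 8 members was below the median over all genes tested, 0.27 log2 units, and Sod1 and Hmox1 were the exceptions. Within the low bioC set the median difference of the 10 genes was -0.02, within the high set -0.11, and -0.08 in a fit that held the sets as a block.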

How the data were processed

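Liver RNA was hybridized to Affymetrix mouse arrays, 1 per mouse, with 5 µg total RNA per sample as input to labelling. The deposited table gives 1 log2 signal per probe set and array. The submitters' processing notes name GCOS; how it summarised probes is not given in the sources used here. Antilogged signals averaged 500.0 on each array once 2% was trimmed from either end, so the arrays had been scaled to a common target. Median log2 signals ran from 6.49 to 6.74, detection calls were not used, and precision is limited by having 6 arrays.

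The 64 control probe sets were set aside. Platform annotation gave 1 gene symbol to 34945 of the other 45037 probe sets. Those with a mean above the 40th percentile, 5.63, were kept, and the brightest stood for each of 12705 genes. The groups were compared by limma 3.58.1 under R 4.3.3 (lmFit, eBayes with trend, 2-sided, Benjamini-Hochberg over all genes at 0.05), without covariates. Single probe sets come from the same fit over all 45037, and their intervals can differ slightly from those of the gene fit. Moderation gave 9.61 degrees of freedom. Exact permutation tests ran over the 20 assignments of mice. Array sets were split at the largest gap of the bioC control. Alternatives covered added constants, filters, normalization, moderation, array weights, probe set choice, the array sets as a block and leaving out each mouse. Figures were drawn with matplotlib 3.10.9.

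The members, gene lists and tests were chosen with earlier results of these data known. Named besides the 10 members are Nfe2l2, Keap1, Nnt, any gene of a wider list that passed, and the 2 genes of smallest p without overlap in each list; marker lists are given by counts and sums. Genes listed but without a kept probe set of a single symbol were not analysed here.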

Additional observations from a re-analysis of the deposited data

How the results depend on the processing

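None of the 10 members passed in any of 20 alternatives, and their median difference ran from -0.14 to -0.03. It moved by more than the spread between livers only with arrays centred on their medians, to -0.145 with 1 member higher and 9 lower, where the median of all genes was -0.06. Leaving out 1 mouse gave -0.10 to -0.03. Directions of small differences turned. Nqo1 was at 0.122 without Tg 7 and 0.0444 without non-Tg 2, in a range of -0.189 to 0.122 over single mice left out. Gclm was at -0.0132 with median centring and -0.0279 without Tg 5 (range -0.0279 to 0.129), Txnrd1 at -0.00315 with median centring, and Hmox1 at -0.0475 without Tg 6 (range -0.0475 to 0.747). Srxn1 was at 0.0903 with the mean of kept probe sets and 0.410 without probe sets that may be shared between transcripts (names ending in _x_at or _s_at). The remaining 5 members kept their direction in all 20, with ranges over single mice left out of -0.207 to -0.00651 for Gclc, -0.456 to -0.188 for Sod1, -0.235 to -0.0223 for Sod2, -0.0919 to -0.0584 for Cat and -0.136 to -0.0790 for Gpx1. Those of Gpx3, Akr1b8 and Bach1 were 0.271 to 0.660, 0.165 to 0.415 and -0.469 to -0.225, and Bach1 was at -0.0536 with the mean of kept probe sets. Keap1 turned to -0.00307 with quantile normalization, -0.0701 with median centring, -0.0774 with the array sets as a block, and -0.128, -0.0301 and -0.0360 without Tg 5, non-Tg 2 and non-Tg 3 (range -0.128 to 0.0924). For the 4 Srxn1 and Txnrd1 probe sets without overlap, 15 alternatives each were run, chosen after seeing the data. Differences ran from 0.21 to 0.75, with limma adjusted p of at least 0.603. Leaving out a mouse, weighting arrays, the block and added constants cannot turn the direction of groups without overlap, which includes Cat and Gpx1. Moderation and threshold settings leave the difference itself unchanged. Only the normalization settings could have turned these 4, and they did not. Nnt lost its call without the intensity trend, at 1.43 (limma adjusted p = 0.239). Over all genes 2 passed. With 16 added before the log, robust moderation or the block it was 4, with median centring 5, and with 64 added, a filter at the 20th percentile or a threshold of 0.1 it was 6. Leaving out 1 mouse gave 2 to 3. The causes were not tested. No paired analysis was possible because the groups share no replicate number.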
